A study of Mus musculus with 4 samples.

Results

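The fibroblast growth factor (FGF) pathway was described across spermatogonial stem cell (SSC) cultures through 10 genes chosen by name for their place in it, out of 55421 genes in the count table. They were the 4 FGF receptor genes Fgfr1, Fgfr2, Fgfr3 and Fgfr4, the docking adaptor gene Frs2, and the 5 ligand genes Fgf2, Fgf5, Fgf7, Fgf8 and Fgf10. The libraries came from primary cultures of mouse spermatogonial stem cells of the CD1 background, derived from the testes of neonatal pups. The germ cells grew on mitotically arrested mouse embryonic fibroblast (MEF) feeders, so every library could hold RNA of both cell types. Veh cultures stayed in complete medium, which contained N2 supplement, GDNF and FGF2 protein (bFGF). The labels of all 4 libraries give bFGF and GDNF each at 10 ng per ml, and the study's recipe gives a higher GDNF dose. NRRA cultures received retinoic acid (RA) for 2 days in a nutrient restriction medium, in which a balanced salt solution took the place of most of the complete medium, and its growth factors were diluted with it. RA, fewer nutrients and diluted growth factors came together in NRRA, so their effects cannot be told apart. Each group had 2 libraries, and added FGF2 protein is not seen by RNA-seq. The protocol text of all 4 libraries describes the NRRA medium, and the groups were taken from the sample titles.

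FGFs are secreted proteins that bind receptor tyrosine kinases together with heparan sulfate chains, or with a Klotho co-receptor in the case of the hormone-like FGFs. The activated receptor phosphorylates FRS2, which brings in GRB2, SOS and SHP2 and thereby turns on the RAS to ERK cascade and the PI3K to AKT branch. ERK signalling in turn switches on its own brakes, such as the Sprouty proteins and the DUSP6 phosphatase. In spermatogonial stem cell culture, FGF2 is supplied with GDNF because the combination sustains self-renewal, in part through the transcription factors Etv5 and Bcl6b.

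Of the 10 genes, 9 passed the filter on low counts. Transcripts of Fgfr2, Fgfr3, Fgfr4 and Frs2 rose under NRRA, and those of Fgfr1, Fgf2, Fgf7 and Fgf10 fell. Fgfr3 rose the most, 3.23-fold, and Fgf10 fell the most, 3.90-fold. Fgf8 was not called, and Fgf5 was too low to be tested. A large part of the transcriptome differed between the groups. By the quasi-likelihood F test of edgeR with Benjamini-Hochberg adjustment, 56.4% of the 20232 genes tested were called at an adjusted p under 0.05, with 27.9% of the genes tested higher and 28.4% lower in NRRA. The counts of 4 higher and 4 lower among the 9 genes that could be tested are read against these shares. In all 10 genes both NRRA libraries lay on the same side of both Veh libraries, as they did in 76.7% of all genes tested.

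The libraries held between 28022265 and 31604769 counts assigned to genes, and 3 counts, used as a floor, stood for 0.0921 to 0.111 CPM (counts per 1000000 of the library size, adjusted by the trimmed mean of M values). Stra8, the RA-induced gatekeeper of meiosis, stood at 9.85 ± 0.325 CPM in Veh and 1858 ± 7.88 CPM in NRRA (mean ± SD, n = 2 libraries in each group, as throughout), which separated the groups as labelled (log2 fold change 7.56, SE 0.035, edgeR adjusted p = 1.14e-37). The 10 germ cell markers were all detected, and their summed level was 2629.7 and 2703.5 CPM in Veh and 2501.6 and 2503.3 CPM in NRRA. Markers of testis somatic cells ranged widely. Of the Sertoli cell list, Amh and Rhox5 had at most 3 counts and Fshr had 0, while Sox9 stood at 27.1 and 29.4 CPM, Wt1 at 6.56 and 7.83 CPM and Inha at 2.62 and 2.96 CPM in Veh. Of the Leydig cell list, Hsd3b1 had at most 1 count and Star 189 to 286 counts. The smooth muscle actin gene Acta2, of the peritubular myoid list, stood at 82.8 and 93.5 CPM in Veh. Which cells these transcripts came from was not tested. Because the libraries are bulk RNA, fewer cells of a type and less RNA per cell cannot be told apart.

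Promoter windows are shown for the 3 receptor genes that rose and for the ligand genes Fgf7 and Fgf10 that fell, so that the start sites of receptors and ligands can be set side by side. RefSeq windows (GRCm38.p6, 250 bases before to 50 after a start) matched 8 of the 10 genes with 9 windows, and Fgfr1 and Fgf8 had none. Capitals mark the GC box GGGCGG, which is the core of Sp1-type sites, and the hexamer AGGTCA with its variants GGGTCA and, less alike, GGTTCA, which nuclear receptors such as the RA receptors bind as paired repeats, all searched on both strands. The windows are Fgfr2 at chr7:130266759-130267058 on the minus strand and, on the plus strand, Fgfr3 at chr5:33721474-33721773 (upstream) and at chr5:33722056-33722355 (downstream), Fgfr4 at chr13:55152568-55152867, Fgf7 at chr2:126034408-126034707 and Fgf10 at chr13:118714449-118714748. The windows of Fgfr2 and Fgf10 and the downstream window of Fgfr3 lie inside the spans that GENCODE M21 gives these genes. They are away from the outermost annotated start. Which start was in use was not tested, and the Fgfr2 span shares exonic bases with Ctbp2 on the same strand.
Fgfr2: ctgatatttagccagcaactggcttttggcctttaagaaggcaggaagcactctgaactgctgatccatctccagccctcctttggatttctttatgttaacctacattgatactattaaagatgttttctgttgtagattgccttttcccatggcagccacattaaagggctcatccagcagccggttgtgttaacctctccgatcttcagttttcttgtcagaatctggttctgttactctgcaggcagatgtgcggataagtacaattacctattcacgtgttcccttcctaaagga
Fgfr3 upstream: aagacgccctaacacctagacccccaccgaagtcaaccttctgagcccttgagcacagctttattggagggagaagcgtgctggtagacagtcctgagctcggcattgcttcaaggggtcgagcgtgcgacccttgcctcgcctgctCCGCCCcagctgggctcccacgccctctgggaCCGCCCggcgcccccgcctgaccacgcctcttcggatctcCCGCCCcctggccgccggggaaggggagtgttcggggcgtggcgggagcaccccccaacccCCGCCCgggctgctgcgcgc
Fgfr3 downstream: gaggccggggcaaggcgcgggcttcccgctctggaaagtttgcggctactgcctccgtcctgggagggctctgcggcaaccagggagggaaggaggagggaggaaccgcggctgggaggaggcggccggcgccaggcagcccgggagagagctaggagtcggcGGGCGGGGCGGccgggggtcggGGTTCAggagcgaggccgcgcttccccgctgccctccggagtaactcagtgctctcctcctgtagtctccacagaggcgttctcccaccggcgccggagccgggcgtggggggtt
Fgfr4: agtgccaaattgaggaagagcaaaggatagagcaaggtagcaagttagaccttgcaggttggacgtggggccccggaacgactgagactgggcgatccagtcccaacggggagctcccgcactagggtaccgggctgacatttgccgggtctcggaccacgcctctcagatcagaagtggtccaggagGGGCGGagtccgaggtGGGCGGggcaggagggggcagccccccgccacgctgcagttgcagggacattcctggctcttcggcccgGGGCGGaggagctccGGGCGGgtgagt
Fgf7: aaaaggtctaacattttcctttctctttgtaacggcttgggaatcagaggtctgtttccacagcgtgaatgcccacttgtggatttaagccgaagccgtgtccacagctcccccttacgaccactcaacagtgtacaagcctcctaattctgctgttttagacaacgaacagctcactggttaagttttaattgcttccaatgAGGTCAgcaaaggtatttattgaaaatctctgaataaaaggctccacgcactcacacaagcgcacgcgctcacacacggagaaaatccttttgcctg
Fgf10: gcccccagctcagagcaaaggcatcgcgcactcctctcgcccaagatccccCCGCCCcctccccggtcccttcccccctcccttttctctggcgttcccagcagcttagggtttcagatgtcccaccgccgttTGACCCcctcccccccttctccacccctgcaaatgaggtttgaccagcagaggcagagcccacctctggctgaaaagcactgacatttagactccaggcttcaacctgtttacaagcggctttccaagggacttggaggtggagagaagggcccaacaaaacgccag

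The Fgfr2 window was 43.7% GC and held none of these motifs. The upstream Fgfr3 window was 69.7% GC and held 4 GC boxes, all read on the minus strand as CCGCCC. The downstream Fgfr3 window was 73.0% GC and held 2 GC boxes, which share a base, and 1 GGTTCA. The Fgfr4 window was 65.3% GC and also held 4 GC boxes. The Fgf10 window was 60.7% GC, with 1 GC box and 1 GGGTCA, read on the minus strand as TGACCC. The Fgf7 window was 45.7% GC and held 1 AGGTCA and no GC box. The median over all 32851 windows was 52.7% GC, so the rising Fgfr2 and the falling Fgf7 both lay below it. The windows not shown were 62.7% GC in Fgf2, 68.3% in Fgf5 and 72.0% in Frs2. A GC box was present in 7 of the 9 windows of these genes and in 35.7% of all windows. At least 1 of the 3 hexamers was present in 5 of 9, and in 34.8% of all windows. Direct repeats of the hexamers spaced by 1, 2 or 5 bases, the arrangement that RA receptor pairs bind, were in 0 of 9 windows and in 0.411% of all windows. The motifs were chosen with results of these data known, and a match is a description of the sequence only.

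Fgfr1 (ENSMUSG00000031565, chr8:25513654-25575718, plus strand) was the main receptor transcript in both groups. It was counted at 219 and 212 CPM in Veh, against 167 and 160 CPM in NRRA. The groups were narrow and apart. Fgfr1 fell 1.32-fold (log2 fold change -0.40, SE 0.032, 95% interval -0.46 to -0.33, edgeR adjusted p = 3.69e-11). This was a modest change in these libraries, since 42.8% of the genes tested moved further in either direction.

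Fgfr3 (ENSMUSG00000054252, chr5:33721674-33737068, plus strand) is a receptor best known for restraining bone growth and marks early spermatogonia in humans. Its level was 8.11 and 8.10 CPM in Veh and 27.3 and 25.1 CPM in NRRA. The Veh libraries were nearly equal, and both NRRA libraries stood far above them. The log2 fold change was 1.69 (SE 0.091, 95% interval 1.504 to 1.88, edgeR adjusted p = 1.19e-14), and 6.02% of the genes tested moved further. On the opposite strand, 13.9% of the Fgfr3 exonic bases overlap G630022F23Rik, which had 110 to 183 counts in every library and was not called (log2 fold change 0.33, edgeR adjusted p = 0.067), but was called without Veh replicate 2 (0.48). The strand setting of the counts is not given in the sources used here.

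Fgfr4 (ENSMUSG00000005320, chr13:55152640-55168759, plus strand), the receptor of the FGF15 and bile acid axis in liver, was the least abundant receptor transcript. Its counts were 27 and 26 in Veh, against 74 and 83 in NRRA, or 0.935 ± 0.0860 and 2.52 ± 0.343 CPM. Both NRRA libraries held more counts than either Veh library. It rose 2.68-fold (log2 fold change 1.42, SE 0.27, 95% interval 0.86 to 1.99, edgeR adjusted p = 7.08e-05), with the widest interval of the receptor genes.

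Fgfr2 (ENSMUSG00000030849, chr7:130162451-133123350, minus strand) has an epithelial splice form that is the high-affinity receptor for FGF7 and FGF10. It was counted at 8.33 and 9.44 CPM in Veh and at 16.4 and 16.7 CPM in NRRA. The groups did not overlap, and the rise was 1.86-fold (log2 fold change 0.90, SE 0.10, edgeR adjusted p = 2.67e-08). Counts per gene cannot separate the splice forms of the ligand-binding domain, which decide ligand choice in Fgfr1, Fgfr2 and Fgfr3. In Fgfr2, 3.04% of the exonic bases overlap Ctbp2 on the same strand, and Ctbp2 moved the opposite way (log2 fold change -0.93, edgeR adjusted p = 1.66e-14).

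Frs2 (ENSMUSG00000020170, chr10:117069427-117148534, minus strand), the adaptor that docks to the receptors at the membrane, was counted at 102 and 99.3 CPM in Veh and at 127 and 133 CPM in NRRA. Both NRRA libraries were higher, by a small margin that was still larger than the spread. The rise was 1.29-fold (log2 fold change 0.37, SE 0.037, edgeR adjusted p = 3.56e-09). Of its longest transcript, 7.99% is near-identical to Galnt1, so a small share of its reads is uncertain.

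**Figure D1:**
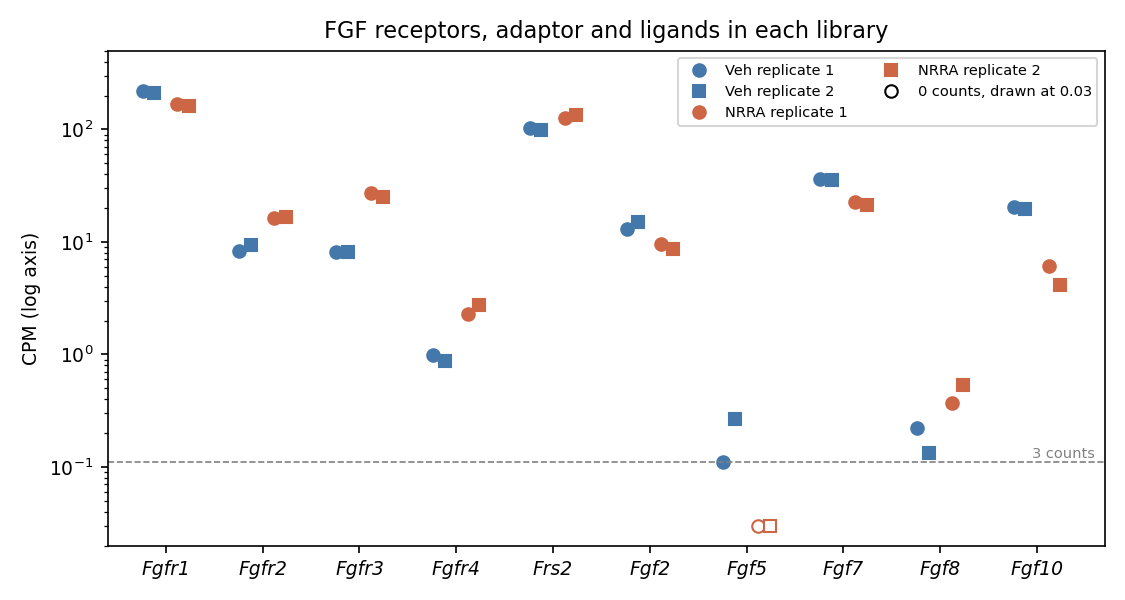
CPM on a log axis of the FGF receptor, adaptor and ligand genes, with a point for each of the 2 Veh and 2 NRRA libraries and a dashed line at the highest CPM that 3 counts stand for. Open symbols are counts of 0, drawn at 0.03 CPM because a log axis has no 0. Fgfr2, Fgfr3, Fgfr4 and Frs2 sit higher in NRRA, Fgfr1, Fgf2, Fgf7 and Fgf10 sit lower, and Fgf5 and Fgf8 lie close to the line.

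Of the 5 ligand genes chosen, 4 were tested, of which 3 fell (Fgf2, Fgf7 and Fgf10), 0 rose and Fgf8 was not called. Among all genes tested, 28.4% were lower and 27.9% higher. Ligand genes outside these 5, some of which rose, are given further below. Fgf2 (ENSMUSG00000037225, chr3:37348346-37410108, plus strand) encodes the same factor that the medium supplies as protein. It was counted at 12.9 and 15.0 CPM in Veh and at 9.55 and 8.57 CPM in NRRA. The Veh libraries differed from each other by more than the NRRA libraries did, and the groups stayed apart. The fall was 1.54-fold (log2 fold change -0.62, SE 0.11, 95% interval -0.85 to -0.40, edgeR adjusted p = 2.13e-05). Nudt6, on the other strand, covers 9.44% of the Fgf2 exons and was not called (log2 fold change -0.17, edgeR adjusted p = 0.327). Nudt6 was called lower without Veh replicate 1 (-0.37) and was at 0.086 without Veh replicate 2.

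Fgf7 (ENSMUSG00000027208, chr2:126034658-126091185, plus strand), also called keratinocyte growth factor, is made by mesenchyme and acts on epithelia. Its level was 36.5 and 35.8 CPM in Veh and 22.4 and 21.5 CPM in NRRA. Replicates were close and the groups were apart. The log2 fold change was -0.72 (SE 0.066, 95% interval -0.85 to -0.58, edgeR adjusted p = 6.29e-10).

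Fgf10 (ENSMUSG00000021732, chr13:118669791-118792115, plus strand), the mesenchymal ligand that drives limb and lung budding, moved the furthest of these genes. Its counts were 560 and 585 in Veh, against 200 and 124 in NRRA, or 20.2 ± 0.698 and 5.13 ± 1.43 CPM. The NRRA libraries differed from each other, and both lay far under the Veh libraries. The log2 fold change was -1.96 (SE 0.13, 95% interval -2.22 to -1.71, edgeR adjusted p = 4.41e-13), and 4.56% of the genes tested moved further. Gm16263, on the other strand, covers 2.67% of the Fgf10 exons. Its counts were 54 and 71 in Veh, against 17 and 12 in NRRA, and it also fell (log2 fold change -2.24, edgeR adjusted p = 1.71e-06). Reads of the overlap cannot be told apart without the strand setting.

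Fgf8 (ENSMUSG00000025219, chr19:45736798-45742915, minus strand), a ligand of embryonic patterning, was counted 6 and 4 times in Veh, against 12 and 16 times in NRRA. Both NRRA values were higher, with few reads behind each. The log2 fold change was 1.33 (SE 0.60, 95% interval 0.084 to 2.57) and did not pass the test (edgeR adjusted p = 0.0643, and 0.0474 to 0.37 over the alternatives). With library size alone as the scaling it was called higher, with a log2 fold change of 1.41. Fgf5 (ENSMUSG00000029337, chr5:98254184-98277030, plus strand), which ends the growth phase of hair follicles, was counted 3 and 8 times in Veh, against 0 in each NRRA library, where a count of 0 allows a level of up to 0.0921 and 0.0997 CPM. It did not pass the filter on low counts. Without that filter it was called lower (edgeR adjusted p = 0.018).

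**Figure D2:**
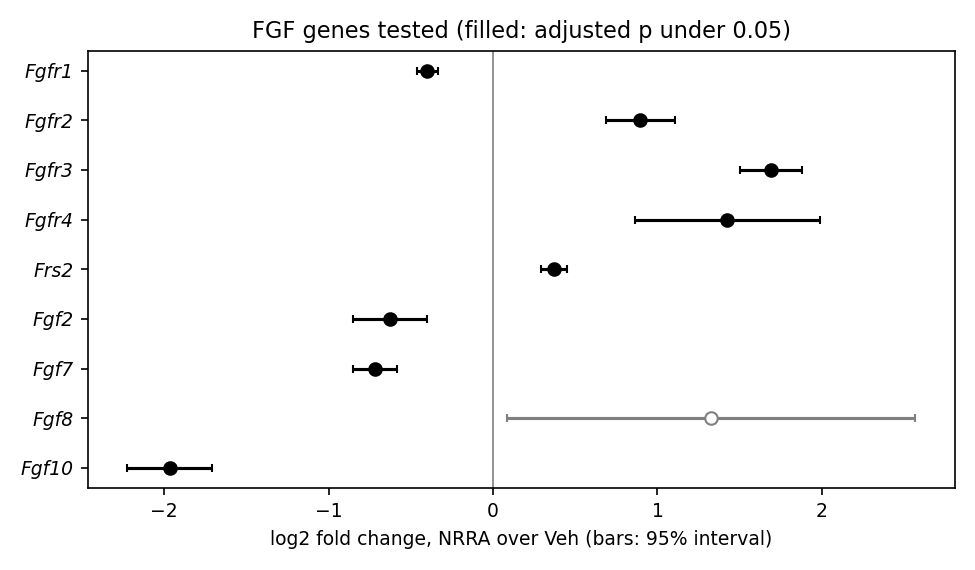
Log2 fold changes of NRRA over Veh for the 9 genes tested, with bars for the 95% interval from the edgeR quasi-likelihood fit and n = 2 libraries in each group. Fgfr3 lies at 1.69 and Fgf10 at -1.96, and the interval of Fgf8, the open point that was not called, is the widest.

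Levels of different genes were compared per kilobase of exon (RPKM, CPM divided by the union exon length in kilobases). In Veh the order by mean RPKM was Fgfr1 (21.8), Frs2 (11.5), Fgf7 (11.1), Fgf10 (4.38), Fgf2 (2.06), Fgfr3 (1.13), Fgfr2 (0.861), Fgfr4 (0.264), Fgf8 (0.132) and Fgf5. The ligand transcripts Fgf7, Fgf10 and Fgf2 thus stood above all receptor transcripts but Fgfr1. Fgfr2 and Fgfr3 change places when lengths are taken from the longest transcript, and the library values of Fgf8 and Fgf5 overlapped. In NRRA the order was Fgfr1 (16.6), Frs2 (14.9), Fgf7 (6.76), Fgfr3 (3.65), Fgfr2 (1.604), Fgf2 (1.34), Fgf10 (1.12), Fgfr4 (0.710) and Fgf8 (0.333), with Fgf5 at 0. The library values of Fgf2 and Fgf10 overlapped there.

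The receptor transcripts changed in make-up more than in sum. The summed RPKM of the 4 receptors was 24.4 and 23.8 in Veh and 22.96 and 22.1 in NRRA. Fgfr1 made up 90.9% and 90.4% of that sum in Veh and 73.7% and 73.3% in NRRA. The share of Fgfr3 was 4.64% and 4.75% in Veh and 16.6% and 15.8% in NRRA. That of Fgfr2 was 3.31% and 3.84% in Veh and 6.93% and 7.32% in NRRA, and that of Fgfr4 was 1.15% and 1.04% in Veh and 2.79% and 3.52% in NRRA. The replicates of a group were close in each share and the groups did not overlap. Fgfr1 was the most abundant receptor transcript in all 4 libraries. These shares are a description, without a test of their own, and depend on the exon lengths used.

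**Figure D3:**
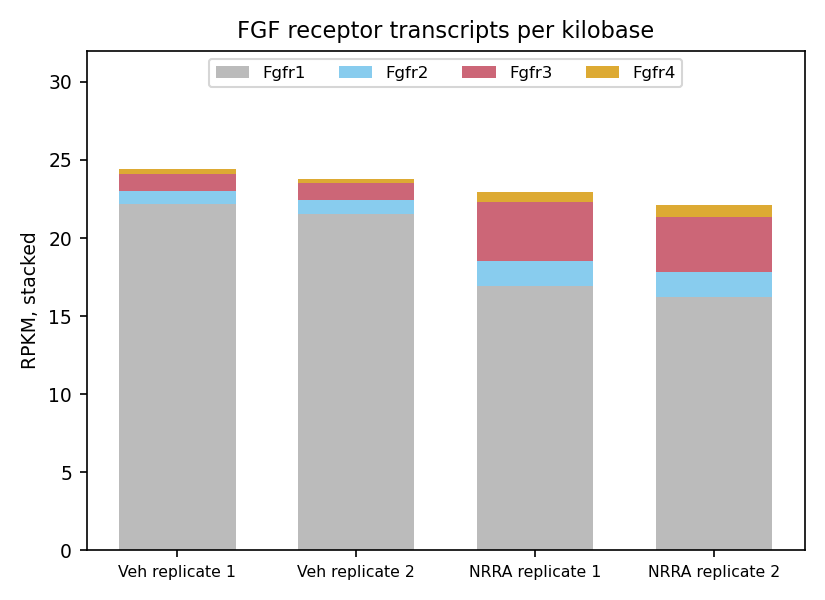
Stacked bars of the RPKM of the 4 FGF receptor genes in each of the 4 libraries, from 0, so that the height of a bar is the sum. Fgfr1 takes 90.9% and 90.4% in Veh, against 73.7% and 73.3% of the height in NRRA, and the segments of Fgfr2, Fgfr3 and Fgfr4 are larger in NRRA.

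Both cell types of the culture may transcribe these genes, so markers of other cells were measured beside them. Of 19 fibroblast feeder markers tested, 13 fell, 4 rose and 2 were not called, with a median log2 fold change of -0.20, beside 28.4% lower and 27.9% higher among all genes tested. Col3a1, Fbln1, Pdgfra and Fap were the 4 that rose. The list's summed level was 10226.8 and 10087.9 CPM in Veh and 7964.2 and 7771.3 CPM in NRRA, and none was at 0. Fn1 made up more of that sum than any other marker, and without it the sums were 4083.8 and 4001.3 CPM in Veh, against 3602.3 and 3419.6 CPM in NRRA. Of the 4 peritubular myoid markers 3 fell, with sums of 96.3 and 106.7 CPM in Veh and 69.7 and 76.6 CPM in NRRA. Of the 3 endothelial markers 2 fell, with sums of 17.4 CPM in both Veh libraries and 6.17 and 6.44 CPM in NRRA. Of 8 Sertoli markers 4 could be tested, of which Inha rose and Sox9 fell, and the sums were 37.0 and 40.8 CPM in Veh and 20.6 and 20.3 CPM in NRRA. Without Sox9 the Sertoli sums were 9.92 and 11.5 CPM in Veh and 11.3 and 10.8 CPM in NRRA, and the groups overlapped. The Inha call was lost without Veh replicate 1 (log2 fold change 0.45) and without NRRA replicate 1 (0.38). The feeder, myoid and endothelial sums were lower in NRRA, as were the germ cell, macrophage and full Sertoli sums. The Leydig sum was higher. Fgf2, Fgf7, Fgf10 and Fgfr1 were also lower, and the part of any cell type in those results was not tested. Leydig markers summed to 7.52 and 7.97 CPM in Veh and 9.58 and 9.23 CPM in NRRA, with 1 of 2 tested higher. That gene, Star, lost its call when any of the 4 libraries was left out (log2 fold changes 0.29 to 0.33). The 3 macrophage markers summed to 24.4 and 25.8 CPM in Veh and 22.7 and 21.7 CPM in NRRA, with 0 called by edgeR. Of the 10 germ cell markers, 4 rose, 5 fell and 1 was not called, with a median log2 fold change of -0.035. The members of that list moved far apart. Zbtb16 and Gfra1, markers of undifferentiated spermatogonia, fell with log2 fold changes of -2.44 (edgeR adjusted p = 3.85e-28) and -1.39 (edgeR adjusted p = 3.57e-20), while Sall4 rose by 0.84 (edgeR adjusted p = 1.65e-18).

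Among 17 other FGF ligand genes, 10 were tested, of which 3 rose, 4 fell and 3 were not called (median log2 fold change -0.086, against 0.000289 over all genes tested). The all-gene shares were 27.9% higher and 28.4% lower. Fgf9, which supports germ cells and Sertoli cell differentiation in the fetal testis, fell the most of those with more than a few counts. It was counted at 8.26 and 9.04 CPM in Veh and at 0.706 and 0.997 CPM in NRRA (log2 fold change -3.35, SE 0.20, edgeR adjusted p = 9.28e-14). The endocrine ligand Fgf21 was counted 13 and 12 times in Veh, against 1 and 0 in NRRA, a ratio of 27.5 with an exact counting interval of 4.51 to 1.13e+03. It was called lower (log2 fold change -4.46, edgeR adjusted p = 0.000302). The log2 fold change of Fgf21 was -6.69 without NRRA replicate 1 and -3.67 without NRRA replicate 2. Fgf18 and Fgf1 fell as well, and without Veh replicate 2 the count of lower ligands was 2. The 3 that rose were Fgf13, Fgf11 and Fgf22. The calls of Fgf1 and Fgf22 were both lost without Veh replicate 2 (log2 fold changes -1.34 and 0.38) and without NRRA replicate 1 (-1.41 and 0.44). Fgf13 and Fgf11 belong to the FGFs that stay inside the cell and bind sodium channels, and are not classical receptor ligands. Fgf13 was counted at 2.88 and 2.79 CPM in Veh and at 11.6 and 11.4 CPM in NRRA (log2 fold change 2.02, SE 0.14, edgeR adjusted p = 1.86e-12), and Fgf11 rose by 1.33 on the log2 scale (SE 0.29, edgeR adjusted p = 0.000288).

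Of 8 other receptor and co-receptor genes, 7 were tested, of which 5 rose and 2 fell (median log2 fold change 0.19), beside 27.9% and 28.4% of all genes tested. Without NRRA replicate 1, 3 rose. The cell adhesion genes Cdh2 and Ncam1, whose products can bind FGF receptors, rose by 0.19 (edgeR adjusted p = 0.00898) and 0.40 (edgeR adjusted p = 7.54e-06) on the log2 scale. The Cdh2 call was lost without Veh replicate 1 (0.15) and without NRRA replicate 1 (0.18). Flrt1 and Flrt3, membrane proteins that bind FGF receptors, rose with log2 fold changes of 1.15 (edgeR adjusted p = 4.39e-06) and 1.04 (edgeR adjusted p = 0.000305). Fgfrl1, a receptor that lacks a kinase domain, was counted at 41.3 and 37.7 CPM in Veh and at 44.1 and 43.7 CPM in NRRA. Its rise was slight (log2 fold change 0.15, edgeR adjusted p = 0.0272), and the call was lost without Veh replicate 2 (log2 fold change 0.086), without NRRA replicate 1 (0.15) and without NRRA replicate 2 (0.16). Klb, the co-receptor of FGF15 and FGF21, was counted 29 and 38 times in Veh, against 20 and 16 times in NRRA (log2 fold change -1.03, edgeR adjusted p = 0.0212). The Klb call was lost without Veh replicate 2 (-0.89), without NRRA replicate 1 (-1.14) and without NRRA replicate 2 (-0.93). Flrt2, whose libraries overlapped between the groups, had a log2 fold change of -0.14 (edgeR adjusted p = 0.0493), and its call was lost without Veh replicate 2 (-0.032) or NRRA replicate 2 (-0.092). Kl was counted 11 and 5 times in Veh, against 1 and 1 in NRRA, and was not tested, with a ratio of 8.82 and an exact counting interval of 2.07 to 79.0.

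A list of genes for heparan sulfate and FGF handling held enzymes that build or trim heparan sulfate and, besides, the FGF-binding protein genes Fgfbp1, Fgfbp3 and Fibp. Of 16 listed, 15 were tested, of which 5 rose, 5 fell and 5 were not called (median log2 fold change 0.033), beside 27.9% higher and 28.4% lower among all genes tested. Fgfbp1 was not tested, and Fgfbp3 and Fibp were not called, so all 10 calls were of heparan sulfate enzymes. The enzymes that add sulfate to the chains moved both ways. Hs3st1, Hs6st2 and Hs2st1 rose with log2 fold changes of 1.44 (edgeR adjusted p = 8.89e-10), 0.41 (edgeR adjusted p = 8.86e-05) and 0.19 (edgeR adjusted p = 0.00035), while Hs6st1 and Ndst2 fell with log2 fold changes of -0.28 (edgeR adjusted p = 0.00013) and -0.28 (edgeR adjusted p = 2.1e-05). Of the enzymes that remove sulfate, Sulf1 fell with a log2 fold change of -0.84 (edgeR adjusted p = 1.38e-12). Sulf2 was at -0.093 (edgeR adjusted p = 0.0322), and its call was lost without Veh replicate 2 (-0.091) or NRRA replicate 2 (-0.042). Of the enzymes of chain synthesis, Extl3 fell by 0.40 (edgeR adjusted p = 3.19e-10) and Ext2 rose by 0.36 (edgeR adjusted p = 1.89e-08) on the log2 scale. Glce, which converts glucuronic to iduronic acid in the chain, rose by 0.18 (edgeR adjusted p = 0.000127).

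Inside the cell, the relay from the receptors to ERK had 8 genes higher, 10 lower and 5 not called of 23 tested (median log2 fold change -0.057). Over all genes tested, 27.9% were higher and 28.4% lower. Frs3, the sister adaptor of Frs2, rose with a log2 fold change of 0.42 (edgeR adjusted p = 0.000919), and Ksr1, a scaffold of the kinase cascade, with one of 0.32 (edgeR adjusted p = 4.39e-06). Sos2, a RAS exchange factor, fell from 42.1 ± 0.948 to 19.1 ± 0.475 CPM (log2 fold change -1.14, edgeR adjusted p = 5.3e-14). Rps6ka1, a kinase downstream of ERK, had a log2 fold change of -0.54 (edgeR adjusted p = 1.66e-11). In the PI3K and AKT branch 3 genes rose, 4 fell and 3 were not called of 10 tested (median 0.034 on the log2 scale), beside the same all-gene shares. Pik3cd, a catalytic subunit of PI3K, fell from 204 ± 3.60 to 71.1 ± 1.42 CPM (log2 fold change -1.52, edgeR adjusted p = 2.61e-22), and Pik3ca, another such subunit, had a log2 fold change of -0.40 (edgeR adjusted p = 2.41e-08). Pdpk1, the kinase that activates AKT, rose with a log2 fold change of 0.67 (edgeR adjusted p = 2.9e-14), and the subunit gene Pik3cb with one of 0.41 (edgeR adjusted p = 7.49e-08).

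The feedback inhibitors and targets of the pathway had the median furthest from 0 of the 6 pathway lists beside the 10 genes. Of 21 tested, 18 fell, 1 rose and 2 were not called, with a median log2 fold change of -0.96, where 28.4% of all genes tested fell and 27.9% rose. The ERK phosphatase gene Dusp6 fell from 288.5 ± 5.06 to 29.9 ± 1.86 CPM, and Spry4, an inhibitor of receptor signalling, from 171 ± 0.731 to 22.8 ± 1.38 CPM. The log2 fold changes were -3.27 for Dusp6 (edgeR adjusted p = 3.85e-28) and -2.91 for Spry4 (edgeR adjusted p = 8.28e-26). The stem cell transcription factors Bcl6b and Etv5 fell with log2 fold changes of -2.77 (edgeR adjusted p = 5.96e-27) and -1.97 (edgeR adjusted p = 3.84e-25), and 42.8% of the longest Etv5 transcript is near-identical to Gm4798. Of the germ cell list, Zbtb16 and Gfra1 also fell (log2 fold changes -2.44 and -1.39), while Sall4 and Uchl1 rose (0.84 and 0.11, edgeR adjusted p = 0.000629 for Uchl1). Their part in these results was not tested. Cbl, a ubiquitin ligase that ends receptor signalling, fell least of those called (log2 fold change -0.17, edgeR adjusted p = 0.00016). Ccnd1, the G1 cyclin gene, rose slightly (log2 fold change 0.17, edgeR adjusted p = 1.26e-06), with 23.4% of its exonic bases overlapped by LTO1 on the opposite strand. These genes answer to GDNF and other receptors as well, and FGF signalling itself was not measured. FGF2 and GDNF were diluted in the NRRA medium along with the nutrients, and the part of this dilution was not tested.

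**Figure D4:**
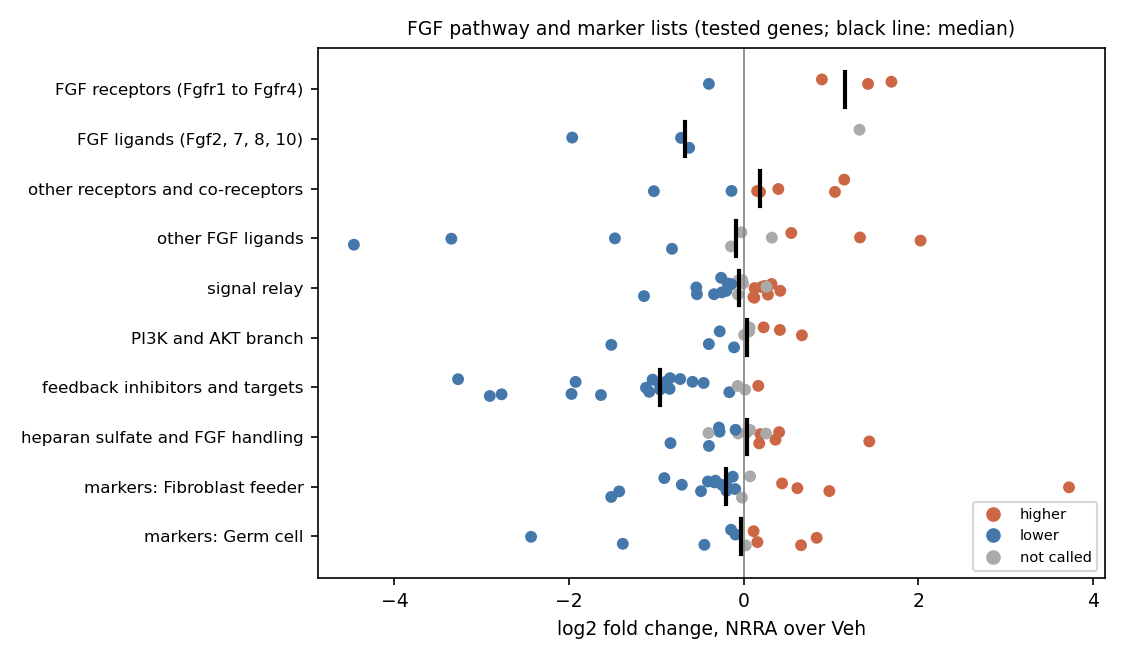
Log2 fold changes of NRRA over Veh for each tested gene of the receptors, the ligands, the FGF pathway lists and the fibroblast feeder and germ cell markers, coloured by call, with a black line at the median of each row. The feedback inhibitors and targets have a median of -0.96, while the medians of the other 5 pathway lists lie between -0.086 and 0.19.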

How the data were processed

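Poly(A) RNA was sequenced in 2 Veh and 2 NRRA libraries. The authors deposited a table of raw counts per gene, made, by the submitters' processing notes, with bcl2fastq, STAR 2.6.1c and featureCounts 1.6.4 on mm10. The annotation release and strand setting are not given in the sources used here. The methods name a stranded kit and the labels another kit. The study states for its sequencing in general that replicates were biologically independent. No label ties these libraries to separate mice or cultures. The p-values measure the spread between the libraries, estimated for each gene with help from all genes tested. That spread was small, with a common coefficient of variation of 2.6% beyond counting error.

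The counts were tested with edgeR 4.0.16 in R 4.3.3 (filterByExpr, TMM scaling, robust quasi-likelihood F test, Benjamini-Hochberg adjustment over all genes tested, threshold 0.05). Standard errors and 95% intervals were derived from the F statistic. Floors and counting intervals cover counting error only. Exon lengths, overlaps and coordinates came from GENCODE M21 (GRCm38), and near-identical stretches (at least 95% identity over 100 bases) from BLAST 2.17.0. The Veh columns, numbered 2 and 3, were matched to titles through the descriptions.

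All 10 genes are named, with up to 2 called genes of largest and 2 of smallest log2 fold change in each list, and genes of defining role. Cdh2, Ncam1, Fgf1, Fgf18, Fgf22, further heparan sulfate genes, single markers and overlapping genes were named after their values were seen. The members and lists were chosen with earlier results of these data known. Alternatives were DESeq2 1.42.0, its size factors, library size alone, no filter, no robust estimation, a replicate block, each library left out, and longest-transcript lengths.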

Additional observations from a re-analysis of the deposited data

How the results depend on the processing

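Under 10 alternatives the 9 tested genes gave 90 log2 fold changes, of which 89 gave the same call and sign as reported. The exception was Fgf8, called with library size alone as the scaling, which made 5 genes higher in place of 4. Without a filter on low counts, Fgf5 made 5 genes lower in place of 4. Library size alone moved the median of all genes by 0.090 on the log2 scale and the share of calls that were higher from 49.6% to 60.3%. With it, 6 PI3K and AKT genes were higher in place of 3, 2 feedback genes in place of 1, and 1 other receptor gene was lower in place of 2. Without robust estimation that count was also 1, and with DESeq2 it was 0, with 3 higher in place of 5. When single libraries were left out, the other receptor genes gave 3 to 4 higher and 0 to 2 lower (3 higher without NRRA replicate 1, 0 lower without Veh replicate 2 or NRRA replicate 2), and 2 to 4 other FGF ligands were lower, with 2 without Veh replicate 2. With lengths from the longest transcript the mean Fgfr1 share of the receptor sum was 91.05% in Veh and 75.25% in NRRA, in place of 90.65% and 73.5%. Over the genes named with a fold change, 567 values kept their call, 35 lost it (Klb, Flrt2, Fgfrl1, Cbl, Cdh2, Fgf1, Fgf22, Sulf2, Inha and Star), 5 gained it (Fgf8, G630022F23Rik, Nudt6 and Wt1) and 1 reversed, that of Nudt6 without Veh replicate 2 (-0.37 to 0.086 with single libraries left out). Fgf21 did not pass the filter when a Veh library was left out and gave no value there. Depth limits Fgf5, Fgf8, Fgf21 and Kl, which had at most 16 counts in a library.

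Titles share replicate numbers between the groups, but same-numbered libraries did not deviate together (correlation -0.011 across genes), so the numbers were not taken as a pairing. With the replicate number as a block, the counts among the FGF genes stayed at 4 higher and 4 lower, and those among all genes were 5772 higher and 5836 lower, against 5654 and 5752 without it.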
